A study of Rattus norvegicus with 16 samples.

Results

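Copenhagen 2331 (COP), an inbred rat strain otherwise known for its resistance to induced mammary tumours, was represented by 4 of 16 expression arrays of the proximal femur, and was set against the 12 arrays of 3 other inbred strains. These were Fischer 344 (F344), Lewis (LEW) and Dark Agouti (DA), with 4 arrays each. A probe set was called private to COP where all 4 COP signals lay above, or all 4 below, each of the 12 others. Of 31042 probe sets that were not controls, 826 met this rule, 497 with COP above and 329 with COP below. Dim probe sets, those whose mean log2 signal was in the lowest 40 percent (a signal under 174), were dropped, which kept 18625. The mean ran over all 16 arrays, so high COP signals alone could carry a probe set over this limit. Of these 758 (4.07%) were private, 457 (2.45%) above and 301 (1.62%) below. The remaining 68 private probe sets fell under that limit and are not described.

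All rats were 4 weeks old, no treatment or transgene is named for any strain, and each array received label made from 5 ug of total RNA. The labels give neither the sex nor whether the 4 arrays of a strain came from separate animals, so that every p-value here measures the spread between these samples. The series was collected around a locus for skeletal traits at the femoral neck that had been mapped to chromosome 4 in an F344 by LEW cross. COP is not a parent of that cross as the series describes it. RNA came from the proximal end of whole femora, and no removal of marrow, growth cartilage or attached soft tissue is named. Fewer cells of one type and less RNA per cell cannot be told apart in it.

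The arrays had median signals between 303 and 325 and their number, 4 per strain, sets the precision. The COP arrays correlated with each other at r between 0.983 and 0.988 across the kept probe sets and with arrays of the other strains at no more than 0.972. Ratios of 3' to 5' signal, a measure of RNA integrity, were 0.970 to 1.03 for Gapdh in COP and 0.982 to 1.06 in the others. For beta-actin they were higher, 1.92 to 2.06 in COP and 1.84 to 2.32 in the others. The labelled tissue was borne out by bone and cartilage markers, with mean COP signals of 62034 for Col1a1 (type I collagen), 54446 for Bglap (osteocalcin), 31689 for Ctsk (cathepsin K of osteoclasts) and 54557 for Col2a1 (cartilage collagen). On the brightest probe set of each gene none of these was called different in COP, with limma adjusted p of 0.327 (Ctsk), 0.695 (Col1a1), 0.859 (Col2a1) and 0.93 (Bglap). The other 2 kept probe sets of Col2a1 were lower in COP, 1 private (-0.57, with signals from 1209 to 1663 in COP against 1920.1 to 2792) and 1 called (-1.01, limma adjusted p = 2.73e-05).

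Gene lists used below cover, among other groups, the defences of the marrow, cytokine signalling and the cell make-up of the tissue. They were chosen with earlier results of these data known. Type I and type II interferons act through STAT proteins and interferon regulatory factors, which bind paired GAAA repeats in the promoters of antiviral genes, of Mx GTPases and of the immunoproteasome. Class II histocompatibility proteins, named RT1-B and RT1-D in the rat, display peptides to helper T cells. Their promoters carry an X box and an inverted CCAAT element, the Y box, that bring in the transactivator Ciita. The femur of a young rat is also a main site of blood formation, so granulocytes, red cell precursors and B cell precursors contribute much of its RNA.

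Both gene groups contained private members that could be matched to a RefSeq promoter of the assembly GRCr8, from 250 bases before to 50 bases after the start of the gene. The first motif searched, on both strands, was GAAA repeated after a spacer of any 2 bases, the core of the interferon-stimulated response element. It occurred in 1034 of 27457 promoters of that length (3.77%), in 19 of 32 promoters of the interferon list (59.4%) and in those of 4 of the 6 private members with an entry (Ifih1, Ifit3, Psmb8 and Psmb10, not Irf8 or Ifi35). The promoters are printed 5′ to 3′ along the gene with each match in capitals, because they belong to members of the list that COP held above every other array and contain the motif. Irf8 and Ifi35, also held above, have no match in this window and are not shown, and Mx2 is named only. Ifih1 lies at chr3:67683919-67684218 on the minus strand, Ifit3 at chr1:241527076-241527375 on the plus strand, Psmb8 at chr20:4656982-4657281 on the minus strand and Psmb10 at chr19:50743243-50743542 on the minus strand. The first base of the match stood 59 bases before the start in Ifih1, 44 in Ifit3, 4 in Psmb8 and 73 and 17 in Psmb10.
Ifih1: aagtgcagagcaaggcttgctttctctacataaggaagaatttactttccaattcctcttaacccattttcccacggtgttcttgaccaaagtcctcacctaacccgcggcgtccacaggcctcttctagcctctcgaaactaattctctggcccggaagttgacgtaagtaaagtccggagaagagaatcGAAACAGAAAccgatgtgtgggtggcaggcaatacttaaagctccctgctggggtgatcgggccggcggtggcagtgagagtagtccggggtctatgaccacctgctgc
Ifit3: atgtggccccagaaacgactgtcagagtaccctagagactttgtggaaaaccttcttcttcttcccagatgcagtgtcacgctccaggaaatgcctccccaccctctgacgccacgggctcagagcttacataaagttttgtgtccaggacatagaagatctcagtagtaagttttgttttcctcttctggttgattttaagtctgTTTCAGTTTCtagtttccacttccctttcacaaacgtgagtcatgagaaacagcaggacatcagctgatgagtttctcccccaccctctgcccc
Psmb8: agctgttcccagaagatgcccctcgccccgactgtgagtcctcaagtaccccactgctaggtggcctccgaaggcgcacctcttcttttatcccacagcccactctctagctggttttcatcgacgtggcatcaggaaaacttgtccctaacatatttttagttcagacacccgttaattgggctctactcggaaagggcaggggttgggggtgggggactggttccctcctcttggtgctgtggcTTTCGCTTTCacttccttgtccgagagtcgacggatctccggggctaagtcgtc
Psmb10: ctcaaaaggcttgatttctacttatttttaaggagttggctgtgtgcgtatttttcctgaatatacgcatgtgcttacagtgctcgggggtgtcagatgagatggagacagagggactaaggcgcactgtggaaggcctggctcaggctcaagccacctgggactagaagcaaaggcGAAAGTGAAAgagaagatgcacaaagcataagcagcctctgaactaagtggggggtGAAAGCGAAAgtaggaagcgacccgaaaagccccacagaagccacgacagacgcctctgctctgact

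The second motif was ATTGG, the inverted CCAAT core, again on both strands; neither motif contains the other. It is short and occurred in 10363 of the 27457 promoters (37.7%), so a match says little by itself. It was in 7 of the 8 class II promoters with an entry and in those of RT1-Bb, RT1-Da and RT1-Db1, the class II chains that COP held below every other array. Ifi30, the list member that COP held above every other array, has no match in this window and is not shown. RT1-Bb lies at chr20:4604069-4604368 on the minus strand, RT1-Da at chr20:4515165-4515464 on the plus strand and RT1-Db1 at chr20:4560113-4560412 on the minus strand. A match began 172 and 61 bases before the start in RT1-Bb, 49 in RT1-Da and 80 and 55 in RT1-Db1. These are reference sequences, and which strain carries which bases was not measured. A match describes letters in a window and not a bound site.
RT1-Bb: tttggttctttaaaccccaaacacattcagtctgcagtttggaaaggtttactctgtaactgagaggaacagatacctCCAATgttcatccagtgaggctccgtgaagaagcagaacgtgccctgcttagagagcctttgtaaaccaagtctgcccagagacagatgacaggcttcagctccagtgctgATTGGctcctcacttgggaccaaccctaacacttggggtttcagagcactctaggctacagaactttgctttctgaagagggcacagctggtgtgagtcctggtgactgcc
RT1-Da: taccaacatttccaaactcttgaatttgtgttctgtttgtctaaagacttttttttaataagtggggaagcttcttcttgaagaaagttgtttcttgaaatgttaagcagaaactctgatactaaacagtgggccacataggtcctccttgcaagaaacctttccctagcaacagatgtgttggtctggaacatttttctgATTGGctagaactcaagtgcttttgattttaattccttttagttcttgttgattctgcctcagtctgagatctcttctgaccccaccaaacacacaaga
RT1-Db1: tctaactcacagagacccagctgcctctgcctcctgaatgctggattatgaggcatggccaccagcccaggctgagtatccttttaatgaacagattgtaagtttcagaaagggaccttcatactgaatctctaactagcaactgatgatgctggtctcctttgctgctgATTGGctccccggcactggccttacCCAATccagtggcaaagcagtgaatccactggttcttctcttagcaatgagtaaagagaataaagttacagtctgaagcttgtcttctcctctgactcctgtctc

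Most private differences were small. Differences are given as log2 of the COP mean minus the mean of the 3 other strain means, with the standard error of the linear model, and no p-value is attached to a gene that was chosen because its values did not overlap. The median difference of the private probe sets was 0.45 where COP was above and -0.51 where it was below, against a median of 0.013 over all kept probe sets. At least 2-fold differences were found for 56 probe sets above and 60 below, 116 in all. The gap between the 4 COP values and the nearest of the 12 others was under 0.1 for 400 of the 758 and at least 1 for 16 of them. By strain means of the log2 signal, the strain nearest to COP was DA for 292, LEW for 235 and F344 for 231. The 582 private probe sets with 1 gene symbol stood for 542 genes, 346 with COP above and 203 with COP below, of which 7 genes had probe sets of both kinds. The same rule gave 908 private kept probe sets for F344, 513 for LEW and 430 for DA, so COP came second. Its private values lay above more often than below, by 457 to 301, or by 360 to 329 when each array was centred on its median.

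The edges of the rule show how fine the line is. Dgka, a diacylglycerol kinase, was just inside with COP signals from 1619 to 1805 against 1152 to 1619, median 1403, in the others, and Tril, a Toll-like receptor partner, with 972 to 1255 against 1256 to 1741, median 1473. Sike1, a suppressor of interferon induction, was just outside with 1787 to 2007 against 1492 to 1788, median 1582, and so was Ptpmt1, a mitochondrial phosphatase, with 2427 to 3114 against 3113 to 3948, median 3433. By the linear model, limma called 3180 of the 18625 probe sets (17.1%) different between COP and the mean of the other strains (adjusted p below 0.05). COP was higher in 1684 (9.04%) of them and lower in 1496 (8.03%). With median centring the split was 1375 higher and 1715 lower. Of the private probe sets 752 were among them, and since both rest on the same values this is a description only.

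The widest named gaps included transducers of cytokine and growth factor signals. Stat3, the transcription factor of the interleukin 6 family of cytokines, had COP signals of 384, 492, 308 and 500.0, and the other strains ranged from 1650.2 to 2643, median 2205. No array of another strain came near the COP arrays, and the difference was -2.34 (SE 0.12), or 5.06-fold. Shc1, an adaptor that couples receptor tyrosine kinases to Ras, was measured at 2043, 1914, 1812 and 1860.3 in COP and at 4009 to 4969.6, median 4492, elsewhere, a difference of -1.23 (SE 0.051), with the other strains' means close together at 4521, 4621 and 4301. Ube2d1, a ubiquitin-conjugating enzyme, stood at 414, 651, 553 and 583 against 1322 to 2459, median 1676, a difference of -1.71 (SE 0.10). In these 3 genes COP was the low strain.

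Socs2, which restrains growth hormone signalling, was the high counterpart with 510.5, 452, 484 and 431 in COP against 53.9 to 256, median 163, a difference of 1.61 (SE 0.20). The COP arrays were close together, whereas LEW (mean 102) lay under F344 (203) and DA (190.4). Rnf41, a ubiquitin ligase that acts on receptors of the ErbB and cytokine families, gave 423, 442, 453 and 407 in COP and 151 to 252, median 225, in the others (1.05, SE 0.14). Il1r2, the decoy receptor for interleukin 1, gave 875, 967, 1145 and 1250.2 against 235 to 647, median 446 (1.28, SE 0.16). COP was above every other array in all 3.

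Among genes of the cytoskeleton and the cell surface, Rdx (radixin, which ties actin to the membrane) was 1066, 1021, 1179 and 1089 in COP and 75.3 to 415, median 254, elsewhere, 2.26 (SE 0.18) higher. Sema6a, a transmembrane semaphorin, was 836, 784, 865 and 768 against 234 to 445, median 354 (1.29, SE 0.12). Tube1, epsilon tubulin of the centriole, was low, with 75.4, 86.6, 79.7 and 109 against 208 to 321, median 264 (-1.59, SE 0.15). None of the 3 overlapped with another strain.

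Low values were also found for Anks1b, a scaffold protein best known from neurons, at 133, 27.2, 120.3 and 96.1 in COP against 242 to 452, median 348 (-2.08, SE 0.28), where replicate 2 was far under the other COP arrays. Ms4a7, a membrane protein of macrophages, was 253, 255, 175 and 179.7 against 439 to 859, median 609 (-1.50, SE 0.12). Cenpw, a centromere protein, was 1072, 993, 1043 and 1100.5 against 1751 to 2249.6, median 2106 (-0.96, SE 0.07). In Cenpw the means of the other strains, 1991, 2047 and 2128, differed little among themselves.

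Nuclear and RNA-processing genes were on both sides. Zfp597, a zinc finger gene, was 588, 579, 611 and 734 in COP against 134 to 291, median 219.8 (1.58, SE 0.13). Harbi1, which descends from a transposase, was 1032, 1028, 1227 and 907 against 419 to 609, median 543 (0.99, SE 0.11). Both were above all other arrays. Below all others were Ddx5, an RNA helicase, with 3603, 3269, 2574 and 2899 against 6184 to 9051, median 7268 (-1.29, SE 0.08), and Pop5, a subunit of the RNA-cleaving ribonucleases P and MRP, with 114, 84.4, 67.4 and 69.1 against 194 to 392, median 306 (-1.85, SE 0.15). Phf20, a reader of lysine methylation, was 435, 524, 526 and 367 against 949 to 1191, median 1103 (-1.23, SE 0.086). The remaining widest gaps of the naming rule were Slc33a1, a transporter of acetyl-CoA into the secretory pathway (1.16, SE 0.12), Tmem14a (1.26, SE 0.10), Fbp2, the muscle fructose bisphosphatase (1.36, SE 0.14), Tpd52l1 (0.86, SE 0.076) and Ccdc6 (-0.93, SE 0.061), with COP above the others in the first 4 of them and below in Ccdc6.

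**Figure D1:**
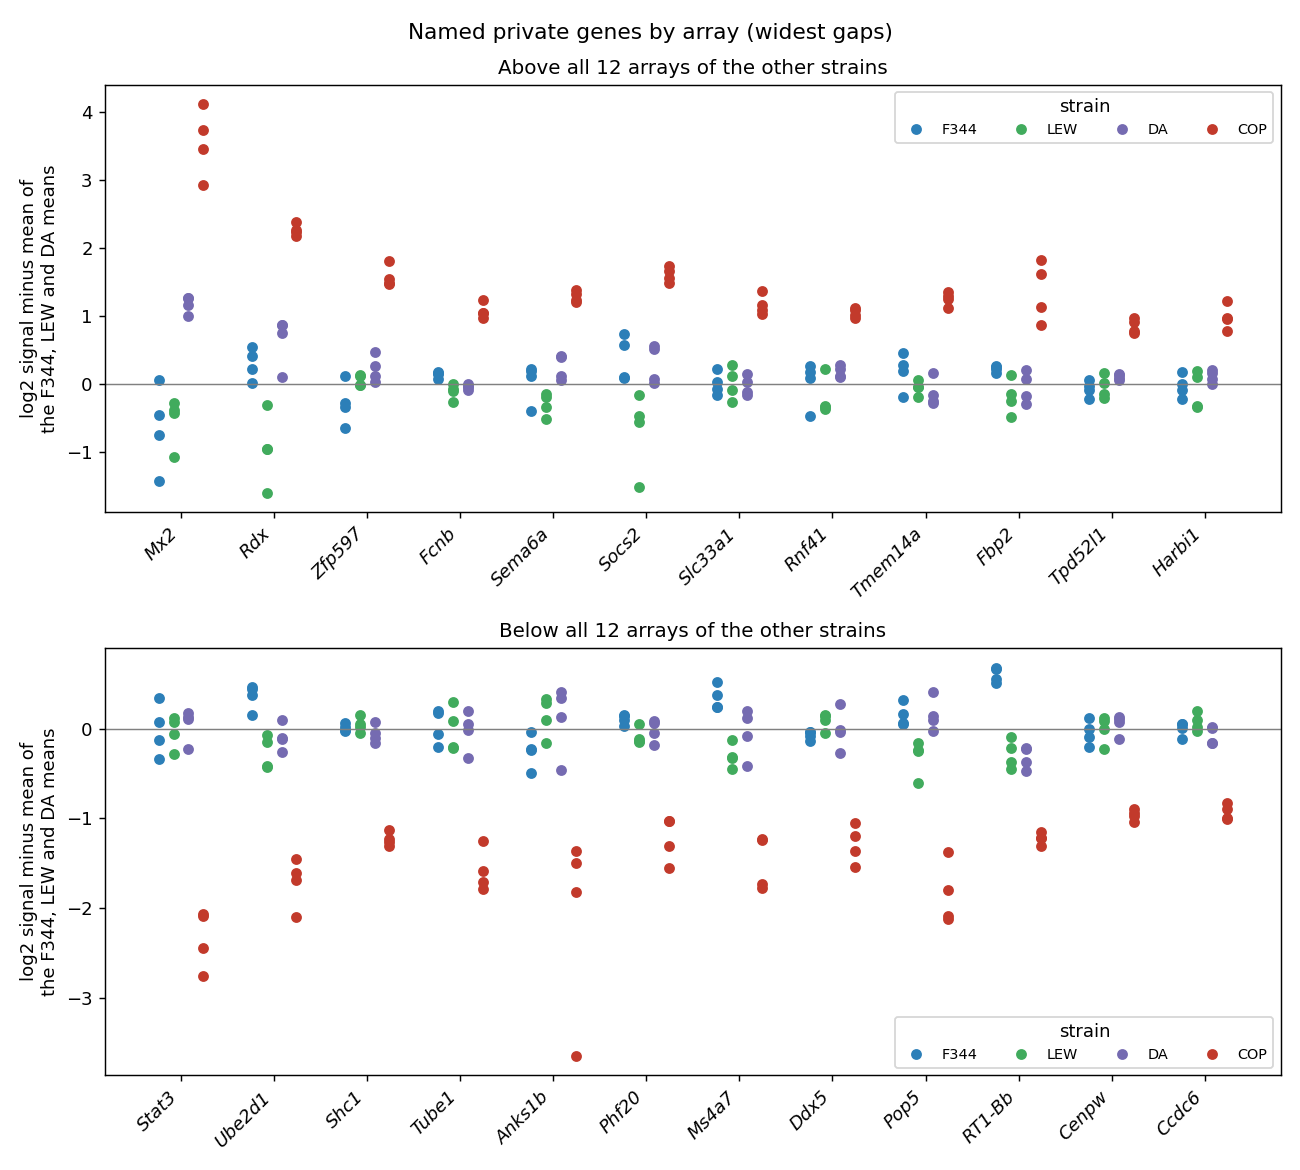
Each point is 1 array, coloured by strain, for the 12 named private genes with the widest gap above (top panel) and the 12 with the widest gap below (bottom panel); the y axis is the log2 signal minus the mean of the F344, LEW and DA means of that gene. The 4 COP points stand clear of the 12 others in each column, by the most for Mx2 above and for Stat3 below, and the 4 COP arrays of Mx2 spread over more than a log2 unit while those of Shc1 and Cenpw lie close together.

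Further wide gaps lay outside the naming rule, which takes for each gene its private probe set with the highest mean, and are named here after their values were seen. A weak probe set of Ints7, a subunit of the Integrator complex that processes small nuclear RNA, was 969, 989.7, 1020.3 and 937 in COP against 106 to 231, median 170.4 (2.60, SE 0.20). The stronger probe set of the same gene differed by 0.57, also above every other array. Nif3l1 behaved alike, with 1419, 1308, 1138 and 1288 against 197 to 313, median 252, on its weaker probe set (2.32, SE 0.11) and 0.29 on its stronger one. Isca1, which assembles iron-sulphur clusters in mitochondria, was low, with 3322, 3972, 3644 and 4031 in COP against 11237 to 16023, median 12819.5 (-1.78, SE 0.067) and a difference of -0.97 on its second probe set, which was private too.

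Of the 16 probe sets with a gap of at least 1, 9 carry no gene symbol in the annotation used here, 2 of them above and 7 below. The widest gap of all was one of them, 1391552_at, with 246, 273, 285 and 275 in COP against 1929 to 4000.1, median 3486 (-3.54, SE 0.075). The probe set 1380948_at had the second widest gap, in the other direction, with 6004, 5667, 5554 and 5999 against 166 to 918, median 277, a difference of 3.99 (SE 0.13) or 15.9-fold. Over all 758 private probe sets 176 lack a single symbol; 76.8% of the private and 76.5% of all kept probe sets have 1.

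A second probe set of the same gene gives a reading that the rule did not use. Another kept probe set existed for 216 of the 542 private genes, 315 probe sets in all. Of these 33 were private in the same direction and 78 more were called in the same direction, 184 were not called, 13 were called in the opposite direction and 7 were private in the opposite direction. The sign was the same for 235 of 315. The other 326 genes had a single kept probe set. A reading that did not pass the test is not evidence of equal levels.

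Several of the widest gaps were not shared by the gene's other probe sets. For Stat3 the second probe set differed by -0.25, which limma called (adjusted p = 0.044) but which overlapped between strains. The 4 other probe sets of Rdx all had differences below 0, from -0.31 to -0.21, and 2 of them were called lower, against the 2.26 of the private one. The second probe set of Ddx5 was called higher (0.17) and that of Pop5 was not called (0.18). The second probe set of Rnf41 was not called (0.22), and of the 3 others of Phf20 (-0.04, -0.15 and -0.28) only the last was called. Tube1 had 1 other probe set called lower (-0.50) and 1 not called (0.26). For Sema6a (-0.11) and for both other probe sets of Slc33a1 (-0.0055 and -0.044) the difference was near 0. The second probe sets of Ube2d1 (-1.04), Cenpw (-1.22) and Harbi1 (0.38) were private as well, in the same direction. Opposite private readings were found in 7 probe sets, among them those of Ppih, a cyclophilin of the spliceosome (-1.15 and 1.11), Tmem248 (-0.67 and 1.43) and Ermp1 (-0.39 and 1.08). Probe sequences were not used here, and whether a strain's own bases under a probe changed its signal was not tested.

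**Figure D2:**
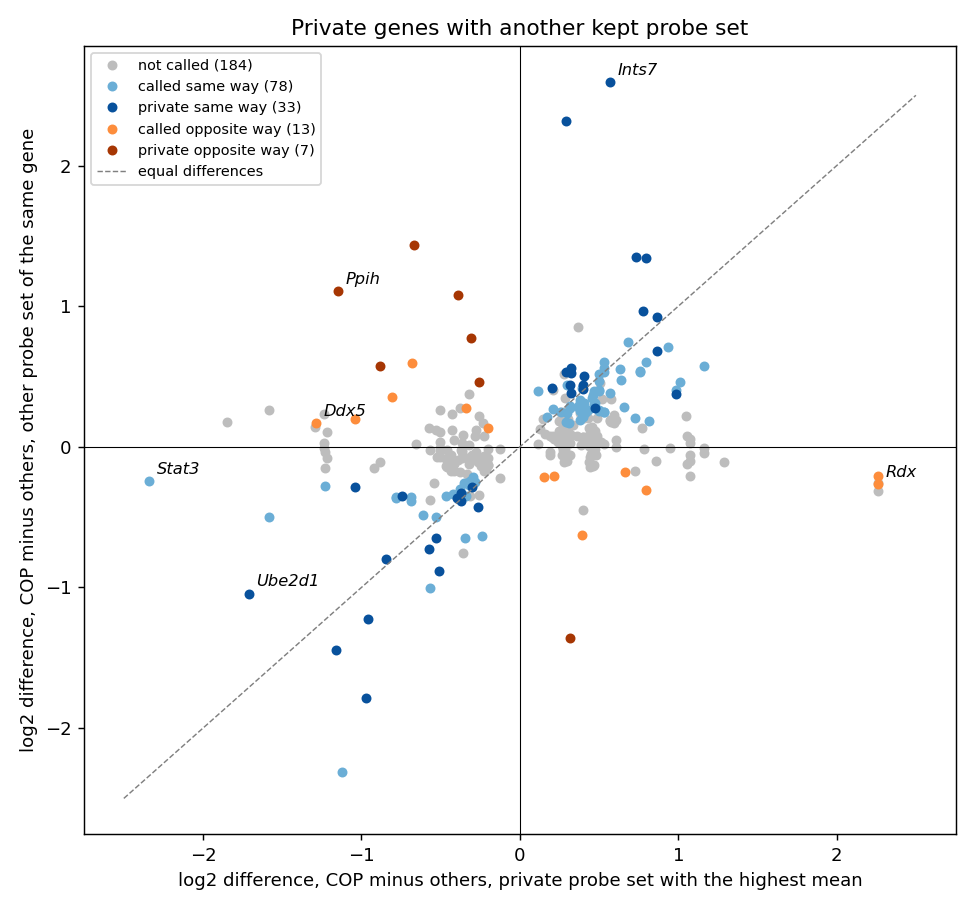
Each point is another kept probe set of a gene whose private probe set is on the x axis; both axes are the log2 difference of COP from the other strains, the colour gives the call of the other probe set with its number in the key, and the dashed line marks equal differences. Ube2d1 was below 0 on both probe sets (-1.71 and -1.04) and Ints7 above 0 on both, while Rdx and Stat3 lie near 0 on the y axis despite differences of 2.26 and -2.34 on the x axis.

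Interferon-induced genes were more often called higher than lower in COP, with LEW the lowest strain, and Mx2 stood far above the rest. Of the 38 kept members of the interferon list, 22 were called higher and 1 lower, where 9.04% of all genes were called higher and 8.78% lower (1880 of 10548 genes, 17.8%, in either direction). The median difference of the list was 0.35, and over all genes tested it was 0.0047. Mx2, an interferon-induced GTPase with antiviral action, gave 746, 1302, 1076 and 1695 in COP. The others ranged from 36.9 to 237, median 78.4, with DA (mean 222) above F344 (67.3) and LEW (69.2). No array overlapped, and the difference was 3.55 (SE 0.23), or 11.8-fold.

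Besides Mx2, 6 members were private, all above. They were Ifit3, which blocks viral translation (0.84, SE 0.17), Ifih1, the cytosolic sensor of double-stranded RNA (0.65, SE 0.12), the immunoproteasome subunits Psmb8 (0.44, SE 0.054) and Psmb10 (0.29, SE 0.057), Ifi35 (0.35, SE 0.087) and the transcription factor Irf8 (0.27, SE 0.059). Ifih1 signals were 346, 375, 388 and 412 in COP against 202 to 318, median 244. Ifit3 signals were 270.1, 334, 244 and 406 against 118 to 234, median 188, and those of Psmb8 2682, 2417, 2659 and 2646 against 1631 to 2388, median 1868. The gaps were narrow in these 6, from 0.012 in Ifi35 to 0.12 in Ifih1.

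Other members were called higher while overlapping with single arrays. Mx1, the sister gene of Mx2, was 289, 471, 339.7 and 499 in COP against 139.9 to 305, median 207, a difference of 0.90 (SE 0.16) with limma adjusted p = 0.000409. Usp18, which removes the ubiquitin-like Isg15 from proteins, differed by 0.86 (SE 0.16), with limma adjusted p = 0.000506. Isg15 itself differed by 0.78 (SE 0.17), with limma adjusted p = 0.00224. In both Mx1 and Usp18 the first COP array lay within the range of the other strains. Irf1 was the only member called lower (-0.30, SE 0.081), a call that was lost without COP replicate 3 or 4. Herc6 (-0.44), Ifit1 (-0.26) and Rsad2 (-0.12) had differences below 0 that were not called.

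The COP arrays were uneven in this list. The mean of its members, each centred on its own mean over 16 arrays, was 0.11, 0.45, 0.18 and 0.47 in COP replicates 1 to 4 and -0.45 to 0.11 in the others, so that replicate 1 lay at the upper end of the others. LEW alone was low, at -0.45 to -0.28, while F344 was at 0.012 to 0.069 and DA at -0.078 to 0.11. The contrast is with the mean of the other strain means, so low LEW values widen it. Leaving out each array in turn kept the count of members called higher within 1.5 times of 22. In a fit with 2 groups only, COP and the 12 others pooled, so that differences among the other strains count as spread, 11 were called. Isg15 and Irf1 were not called in that fit, nor were Cd74, RT1-DMb, RT1-DMa, RT1-T24-4, Tap2, Defa7, Cpa3, Vpreb3, Klf1, Hba-a3 and Gclc of the lists that follow.

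Class II genes were low. Of 10 kept members 7 were called lower and 1 higher, with a median difference of -0.39. RT1-Bb, the beta chain of the RT1-B molecule, had COP signals of 992, 889, 944 and 942 against 1587 to 3529, median 1895, a difference of -1.22 (SE 0.067). RT1-Da, the alpha chain of RT1-D, was 2757, 2574, 2404 and 2859 against 4005 to 8087, median 4600.4 (-1.02, SE 0.054), and its beta chain RT1-Db1 568, 586, 492 and 608 against 888 to 1756, median 1163 (-1.12, SE 0.066). COP was under all other arrays in the 3 genes, and F344 was the highest of the other strains in each, at 3342, 7961 and 1667.

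RT1-Ba, the alpha chain of RT1-B, was 468, 317, 613 and 280.4 in COP against 498 to 2327, median 954, and its replicate 3 overlapped with the others (-1.49, SE 0.16, limma adjusted p = 1.24e-06). The invariant chain Cd74 (-0.34, SE 0.052, limma adjusted p = 9.41e-05) and the peptide loaders RT1-DMb (-0.45, SE 0.12, limma adjusted p = 0.0123) and RT1-DMa (-0.23, SE 0.077, limma adjusted p = 0.0446) were called lower too. The call of RT1-DMb was lost without COP replicate 3 (limma adjusted p = 0.0839), and that of RT1-DMa without any 1 of the COP arrays (0.0512 to 0.162) and in several other alternatives. Ciita, the transactivator of the group, was -0.29 and not called (limma adjusted p = 0.325). Ifi30, a lysosomal thiol reductase that prepares antigen, ran the other way, with 5942, 6271, 6263 and 6133 against 4690.2 to 5622, median 5346 (0.24, SE 0.046). The list mean was -0.47 to -0.41 in COP and -0.074 to 0.50 in the others, with no overlap. The genes of this family are polymorphic between strains and alike in sequence, and the contribution of probe matching to these signals was not tested. In the 2-group fit 4 members were called lower.

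Class I genes had no common direction in COP, with 4 of 14 called higher, 2 lower and 1 private. The private one was RT1-CE10, at 722, 689, 712 and 625 against 329.8 to 610.0, median 471 (0.57, SE 0.10), from a probe set of the x_at kind, whose probes can be shared with other sequences. RT1-T24-4, of the same kind, was called higher (1.20, SE 0.13), with LEW alone low (mean 269) and COP (2948) beside F344 (2679) and DA (2976). Tap2, the peptide transporter, was 1913, 1899, 1553 and 1792 in COP, beside DA at 1655 and above F344 and LEW at 785 and 880.2.

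Granule proteins of the neutrophil were more often called higher than lower. In that list 10 of 20 kept members were called higher and 2 lower, where 9.04% and 8.78% of all genes were. Private members numbered 5, 4 above and 1 below, against 4.20% of all genes. Fcnb, a ficolin that tags microbes for complement, was 12606, 13300.5, 15167 and 13273 in COP and 5379.7 to 7289.8, median 6371, in the others, 1.08 (SE 0.051) higher, with the other strain means between 5984 and 7087. Mmp8, the neutrophil collagenase (0.78, SE 0.062), and Camp, the cathelicidin precursor (0.62, SE 0.046), were above all others as well. DA was next in both, with means of 3241 for Mmp8 against 4177 in COP and 20100 for Camp against 23176 in COP. Lcn2, which withholds iron from bacteria, was 15023, 17135, 18109 and 18374 in COP, and LEW was close behind at 12526, while F344 and DA were at 834 and 1023; its difference of 2.96 therefore mixes strains.

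Padi4, which converts arginine to citrulline in chromatin, was private below at 175, 89.7, 57.8 and 131 against 211 to 445, median 306 (-1.56, SE 0.22). Defa7, a defensin, was called lower (-1.16, SE 0.14), with DA high (2943) and COP (386) overlapping with F344 (380.1). S100a8 (0.14), S100a9 (0.11) and Lyz2 (0.15), abundant products of the same cells, were not called. The list mean was 0.17 to 0.23 in COP against -0.32 to 0.14, without overlap, while the summed signal of its members, 409462 to 440843 in COP and 333170.0 to 451801 in the others, overlapped. By strain the list mean was lowest in F344 (-0.32 to -0.27), which widens the contrast, with LEW at -0.046 to 0.078 and DA at -0.031 to 0.14. In the 2-group fit 6 members were called higher.

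Mast cell, basophil and eosinophil genes were called in both directions. Epx, eosinophil peroxidase, was 14671, 17725, 17309 and 17283 in COP against 4081 to 10953, median 6036 (1.36, SE 0.10), and Prg2, the eosinophil major basic protein, 37189, 40082, 36569 and 35329 against 13807 to 33857, median 18244 (0.86, SE 0.073), with DA the next strain in both. Tpsab1, a tryptase of mast cells, was under all others at 183, 176, 209 and 266 against 277 to 805, median 393 (-1.01, SE 0.14). Of 15 kept members 3 were called higher and 5 lower, the lower ones including Cpa3, carboxypeptidase A of mast cells (-0.52, SE 0.086, limma adjusted p = 0.000189). Without COP replicate 3 the count of lower calls fell to 3.

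Lymphoid genes leaned upward. In the B lymphoid list 8 of 12 kept members were called higher and 1, Cd74, lower, where 9.04% and 8.78% of all genes were. The median difference was 0.52, and without COP replicate 2 there were 2 lower calls. Private members were Cd37, a tetraspanin (4031, 4084, 3948 and 4261 against 1765 to 3484, median 2711, 0.67, SE 0.07), and Pou2af1, a coactivator of immunoglobulin genes (5916, 5925, 5443 and 6062 against 2636 to 5168, median 3817, 0.62, SE 0.081). Vpreb3 was called higher (0.87, SE 0.11, limma adjusted p = 6.56e-06), but LEW (4971) was above COP (3413). The list mean overlapped with the others, 0.15 to 0.37 against -0.44 to 0.21, and with 2 groups 4 members were called higher. F344 was the lowest strain (-0.44 to -0.38), which widens the contrast, while LEW (0.13 to 0.21) overlapped with COP and DA lay at -0.24 to 0.18. Of 25 T and natural killer cell genes in the annotation 11 were kept. Among these, 4 were called higher and 0 lower (0 lower by limma's unadjusted p under 0.05, and 2 higher without COP replicate 1 or without replicate 2). Nkg7, a granule protein of killer cells (0.72, SE 0.072), and the T cell kinase Lck (0.48, SE 0.069) were private.

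Macrophage genes went both ways. Fcgr2b, the inhibitory Fc receptor, was 1154, 1323, 1333 and 1309 in COP against 529 to 891, median 625 (0.96, SE 0.075), above every other array. Mrc1, the mannose receptor, was 3292, 3148, 2919 and 2913 against 3458 to 4605, median 3987 (-0.38, SE 0.054), and Hmox1, haem oxygenase, 2249.8, 2189.6, 1842 and 2263 against 2375 to 3612, median 2656 (-0.39, SE 0.073); both were under every other array, as was Adgre1, the F4/80 antigen (-0.39, SE 0.093), by a narrow gap. Of 19 kept members 3 were called higher and 4 lower, with 5 higher calls without COP replicate 3 or without LEW replicate 4. Among the cytokines and chemokines 13 of 43 were called higher and 3 lower. The private ones, besides Il1r2, were the chemokine Ccl6 (5412, 5420.1, 5120.1 and 5139 against 1799 to 3778, median 2133, 1.13, SE 0.075), the chemokine receptor Ccr2, which draws monocytes out of the marrow (511, 519, 606 and 520.2 against 194 to 383, median 264, 1.04, SE 0.13), and Il6r, the interleukin 6 receptor (0.67, SE 0.074). The count of higher calls was 8 without COP replicate 1, 7 without COP replicate 2 and 6 in the 2-group fit.

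Red cell genes were lower. Of 27 kept members 16 were called lower and 0 higher (0 higher also by limma's unadjusted p under 0.05), with a median difference of -0.21, and 10 were called lower without COP replicate 1. Cpox, an enzyme of haem synthesis, was 10743, 11985, 12019 and 11734 in COP against 14260.3 to 18943, median 17272 (-0.55, SE 0.068). Rhd, of the Rh membrane complex (-0.38, SE 0.054), and Xpo7, a nuclear exporter of late erythroblasts (-0.32, SE 0.061), were also private below, by narrow gaps. Hba-a3, an alpha globin gene, was called lower (-1.41, SE 0.19, limma adjusted p = 2.38e-05) but F344 (mean 8979.6) was close to COP (9363, with replicates 1 and 2 under replicates 3 and 4). The master regulator Klf1 was called lower, by -0.26 (SE 0.059) with limma adjusted p = 0.00338, while Gata1 (-0.11), Slc4a1 (-0.08) and Hbb (-0.10) were not called. The list mean was -0.28, -0.18, -0.15 and -0.14 in COP and -0.14 to 0.28 in the others, just apart, F344 being next. In the 2-group fit 6 were called lower. Platelet genes were mixed (3 higher and 2 lower of 16), with the platelet chemokine Ppbp private above (0.71, SE 0.089) and the receptor Treml1 private below (-0.39, SE 0.084).

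Fat cell genes were lower as well, 12 of 24 called lower and 0 higher (0 by limma's unadjusted p under 0.05). Scd, which desaturates fatty acids, was 1548, 975, 2224 and 871 in COP against 2551 to 6018, median 3459 (-1.59, SE 0.16). Plin1, the coat of the lipid droplet, was 877, 784, 1024 and 858 against 1157 to 1526, median 1412 (-0.63, SE 0.08), and the hormone Adipoq 1895, 1604, 2475 and 1769 against 2535 to 3671, median 2899.9 (-0.61, SE 0.083). These 3 lay under all other arrays. Ucp1, which makes heat in brown fat, had the largest difference of the list (-2.37, SE 0.45, limma adjusted p = 0.000753), with 266, 93.6, 159 and 75.8 in COP, and overlapped with the others (149 to 2813, median 718). Cidea, another brown fat gene, was called lower, by -0.97 (SE 0.17) with limma adjusted p = 0.00041. The adipocyte regulators Pparg (-0.018) and Cebpa (-0.056) were not called. List means were -0.33, -0.43, -0.11 and -0.38 in COP against -0.24 to 0.25, and summed signals 99168 to 120194 against 101846 to 144129, both overlapping.

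Skeletal muscle genes gave 22 lower calls of 40 and 0 higher (1 by limma's unadjusted p under 0.05), and 39 of the 40 differences were below 0. Pygm, muscle glycogen phosphorylase, was the private member, at 7232, 10184, 13053 and 11519 against 13110.2 to 20674, median 17910.2 (-0.78, SE 0.11). Cacna1s, the calcium channel of the transverse tubule (-0.82, SE 0.17, limma adjusted p = 0.0014), and the fast myosin Myh4 (-0.57, SE 0.079, limma adjusted p = 2.41e-05) were called. This group rested on part of the arrays, since list means were -0.53, -0.34, -0.047 and -0.062 in COP replicates 1 to 4 against -0.31 to 0.27 in the others. Lower calls numbered 10 without COP replicate 1, 11 without COP replicate 2 and 14 in the 2-group fit. Summed signals of the list were 585087 to 757629 in COP and 675021 to 960374 in the others. Muscle that stays on a bone piece is soft tissue of the dissection, and its part in the result was not tested.

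Subunits of oxidative phosphorylation went with muscle across the COP arrays, with list means of -0.23, -0.13, -0.021 and -0.027. Of 55 kept subunits 12 were called lower and 0 higher (32 and 0 by limma's unadjusted p under 0.05), by at most -0.34 (Ndufv2, of complex I), and 0 were private. The count of lower calls was 1 without COP replicate 1, 2 without COP replicate 2, 7 without F344 replicate 3 and 19 without LEW replicate 4. It was 6 with no filter on dim probe sets, 4 without the intensity trend and 3 with 2 groups. The part of muscle in this shift was not tested.

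**Figure D3:**
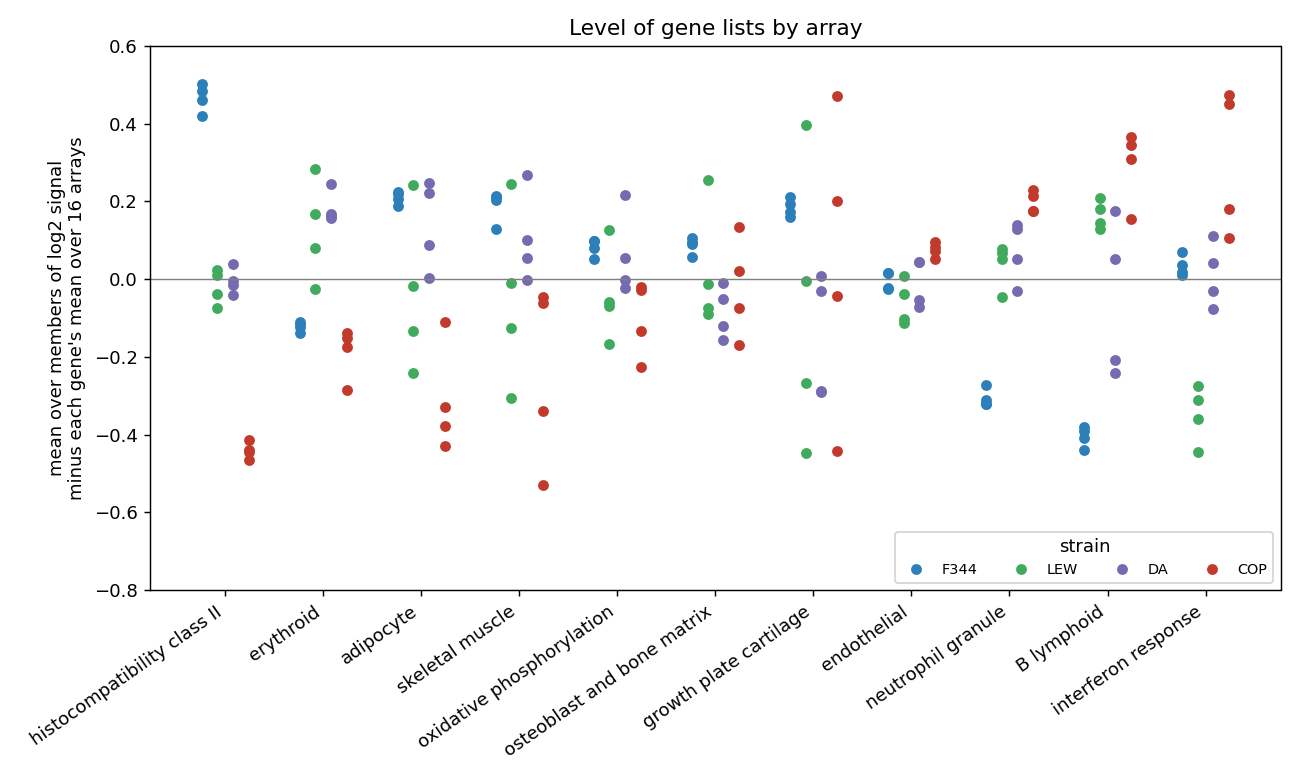
Each point is 1 array, coloured by strain; the y axis is the mean over the kept members of a gene list of the log2 signal minus that gene's mean over the 16 arrays. COP lies under all other arrays for class II and erythroid genes and above all others for neutrophil granule and endothelial genes, and its 4 arrays spread widely for skeletal muscle (-0.53 to -0.047) and growth plate cartilage (-0.44 to 0.47).

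Among the lists of bone cells and cartilage, 25% of the osteocyte list was called in either direction, against 17.8% of all genes. The osteoblast (8.70%), osteoclast (12.5%) and cartilage (5.26%) lists were under that share. The osteoblast list had 1 higher and 1 lower call of 23, the osteoclast list 1 and 1 of 16, the osteocyte list 2 and 1 of 12 and the cartilage list 1 and 0 of 19. In each direction these counts stayed between 0 and 3 in all alternatives. On the brightest probe set of each gene, 1 of the 69 genes in these 4 lists was private (1.45%, against 4.20% of all genes tested). It was Enpp1, which makes pyrophosphate, an inhibitor of mineral growth, at 4766, 3896, 4454 and 3706 in COP against 1512 to 3302, median 2174 (0.90, SE 0.081), with DA next at 3042. Col2a1, as given above, and the osteoclast kinase Src (0.41, SE 0.096) were private on a dimmer probe set. Mepe, a phosphoprotein of osteocytes, was called higher (0.44, SE 0.081, limma adjusted p = 0.000548) and Cthrc1, a secreted collagen-associated protein, lower (-0.50, SE 0.081, limma adjusted p = 0.000158), both with overlap. Cartilage list means were 0.47, 0.20, -0.042 and -0.44 in COP replicates 1 to 4 and ranged from -0.45 to 0.40 in the others, so the COP arrays spanned much of the range of all arrays.

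Growth factor pathways held a few private genes. In the BMP and TGF-beta list Bmp4, a ligand of bone formation, was 878, 924, 772 and 796 against 378 to 549, median 449.7 (0.89, SE 0.093), and its receptor Bmpr1a 1016, 890.4, 1372 and 1266 against 465 to 862, median 727 (0.67, SE 0.13), both above all others. Of 46 kept members 4 were called higher and 2 lower; without 1 array higher calls were 2 (COP replicate 1 or 4) and lower calls 1 (COP replicate 2 or 4), 4 (COP replicate 1) or 5 (LEW replicate 1). In the insulin-like growth factor list, with 1 higher and 3 lower calls of 20 (1 lower without COP replicate 2), the ligand Igf2 was private besides Socs2, at 5115, 4589, 5914 and 5035 against 6772 to 9938, median 8546 (-0.74, SE 0.082). Flt1, a receptor of VEGF, was 388, 487, 447 and 346 against 99.6 to 283, median 220.1 (0.95, SE 0.21), though its second probe set was not called (-0.01), and the coreceptor Nrp1 was under all others (-0.23, SE 0.05). The fibroblast and vascular growth factor list had 3 higher and 2 lower calls of 25, with 1 lower call without COP replicate 1, 2 or 3 or without F344 replicate 3. The Wnt list had 0 private members on their brightest probe sets, and 3 higher and 2 lower calls of 33 (1 lower without COP replicate 1 or 4), led by the receptor Lrp6 (0.59, SE 0.10, limma adjusted p = 0.000225) and by Lrp4, its relative that anchors sclerostin (-0.62, SE 0.11, limma adjusted p = 0.000609).

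The endothelial list mean was above the others without overlap (0.052 to 0.095 against -0.11 to 0.044), although its median difference was -0.004. Of 22 members 5 were called higher and 3 lower (1 lower without COP replicate 3), or 36.4% in either direction against 17.8% of all genes. The lower ones were Pecam1 (-0.41), Mmrn2 (-0.35) and Stab2. The private members of the list were Flt1 and Ly6c (0.91, SE 0.092), both above. Antioxidant and aldehyde enzymes were often called, 11 higher and 14 lower of 48 (9 lower without COP replicate 1, and 6 and 7 with 2 groups). Private above were the retinal dehydrogenases Aldh1a1 (1047, 1155, 1572 and 1598 against 511 to 992, median 843, 0.81, SE 0.12) and Aldh1a3 (0.79, SE 0.13), the quinone reductase Nqo1 (0.37, SE 0.063) and Prdx5 (0.27, SE 0.051). Private below were Gclc, the first enzyme of glutathione synthesis (-0.47, SE 0.061), Gpx4 (-0.21, SE 0.051) and Hmox1. Gclc was below by a gap of only 0.0053. Its mean signals were 2852 in COP, 3089 in F344, 3714 in LEW and 5353 in DA.

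The remaining lists held few private genes. For scale, 9.04% of all genes were called higher and 8.78% lower. Dusp1, a phosphatase induced by stress, was private below among the immediate early genes, at 3335, 3023, 4833 and 5173 against 6243 to 9119.8, median 7785 (-0.92, SE 0.11), though its second probe set was not called (-0.15); that list had 2 higher and 2 lower calls of 24, with 1 higher without COP replicate 1 or 3. Cenpf, a kinetochore protein, was private below among the cell cycle genes (-0.57, SE 0.08), and Vldlr, a lipoprotein receptor, among the cholesterol genes (-0.53, SE 0.076), on 2 of its 4 probe sets. Cell cycle genes gave 4 higher and 5 lower calls of 46, and cholesterol and lipid transport genes 2 and 4 of 29, with 2 lower without COP replicate 1 or 2. Matrix proteases and inhibitors had 4 higher and 0 lower calls of 32 (1 lower by limma's unadjusted p under 0.05), with 2 higher without COP replicate 1 or 2, and Mmp8 was their private member. Of the 29 cytosolic ribosomal protein genes limma called 0 at an adjusted p under 0.05, 0 at an unadjusted p under 0.05, and at most 1 in any alternative. Collagens (5 higher and 4 lower of 38), heat shock proteins (2 and 5 of 27) and P450 enzymes (2 and 0 of 13, with 2 lower by limma's unadjusted p under 0.05) had 0 private members on their brightest probe sets. For collagens higher calls were 3 without COP replicate 1 or 2, and lower calls 0 without COP replicate 2 and 2 without COP replicate 3, COP replicate 4 or F344 replicate 2. Heat shock genes called higher were 0 without COP replicate 1 and 1 without replicate 2. Over all 32 lists 58 of 817 kept genes were private on their brightest probe set (7.10%), where the share over all genes tested was 4.20%. The lists were chosen with earlier results of these data known, so these shares are a description only.

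Another 13 list genes were private on a dimmer probe set, 11 above and 2 below. Igfbp5, a binding protein of insulin-like growth factors in bone, had the widest gap of them, with COP signals from 483 to 681 against 1043 to 1762, median 1379 (-1.24, SE 0.12), while its brightest probe set was not called (0.028). Ccnd1, cyclin D1, was 2091 to 2602 against 844 to 1749, median 1112 (1.05, SE 0.093), and its brightest probe set was not called (-0.12). Cybb, the oxidase subunit of phagocytes, was 3273 to 3619.7 against 1679.6 to 2844 (0.76, SE 0.063), and its brightest probe set was called higher too (0.53, limma adjusted p = 5.65e-07). The rest, besides Col2a1, Src and Cxcl12, were Dusp6 (0.73), Adam10 (0.57), Cxcr4 (0.47), Ebf1 (0.46), Timp2 (0.43), Cdk2 (0.38) and Lef1 (0.36), all above.

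**Figure D4:**
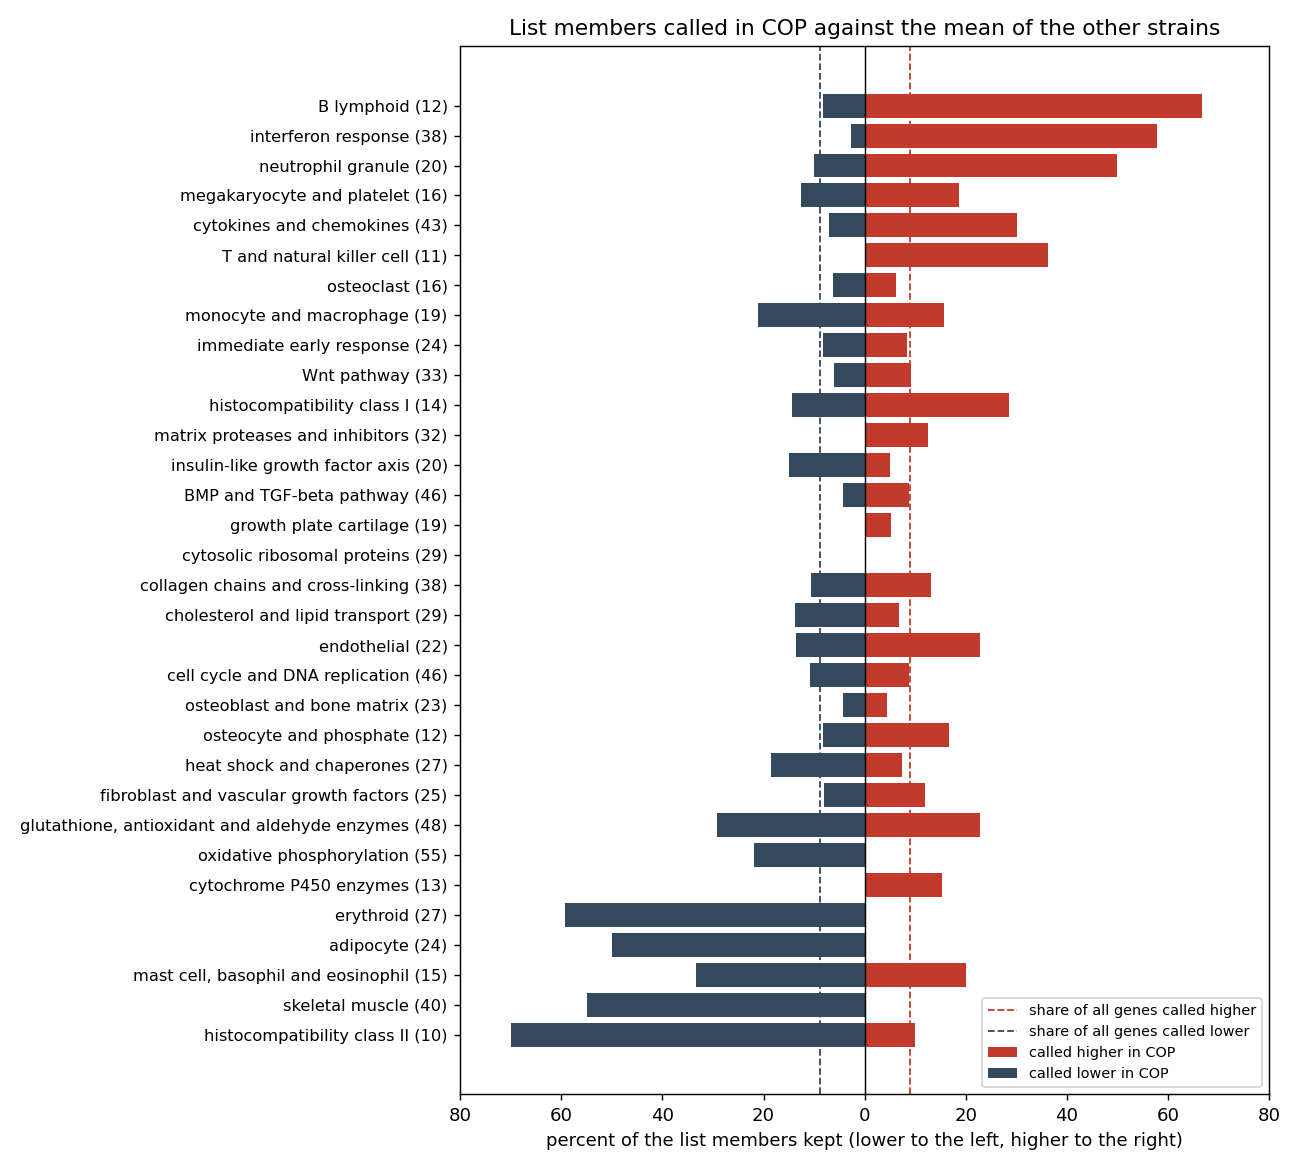
Bars give, for each of the 32 gene lists (kept members in brackets), the percent of members that limma called lower (left) and higher (right) in COP at an adjusted p under 0.05; the dashed lines are the same shares over all 10548 genes, 8.78% and 9.04%, and lists are ordered by median difference. B lymphoid, interferon and neutrophil granule genes reach far to the right, and class II, muscle, adipocyte and erythroid genes to the left.

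By position, private genes were found on every chromosome but Y, which had 1 tested gene. With 1 probe set per gene, 443 of 10548 genes were private (4.2%). The share was highest on chromosome 13 (26 of 314 genes, 8.28%), 9 (30 of 412, 7.28%) and 12 (21 of 352, 5.97%). It was lowest on the X chromosome (7 of 316, 2.22%) and on chromosomes 14 (8 of 342, 2.34%) and 4 (15 of 606, 2.48%). The next gene along the chromosome was private after 6.35% of private genes. There were 27 runs of neighbouring private genes with 55 genes in all, and the longest, on chromosome 9, held 3 (Rpl7l1, C9h6orf226 and Cnpy3).

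Some private neighbours lay on the same side of the other strains and some on opposite sides. H19 and Igf2, the imprinted pair on chromosome 1, were both below (-0.51 and -0.74), as were RT1-Da and RT1-Db1 on chromosome 20. Ifih1 and its neighbour Gca, a calcium-binding protein of granulocytes (0.99), were both above on chromosome 3. Chit1 and Chi3l1, chitinase-family genes on chromosome 13, were 0.81 above and -0.43 below. The densest stretch of 20 tested genes, on chromosome 1, held 6 private ones: Ms4a7 (-1.50), Tmem132a (-0.43) and Cntf (-0.26) below, and Ms4a6bl1 (0.52), Mpeg1 and Lpxn (0.35) above. Neighbouring genes are not independent, and no test was made of these counts.

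**Figure D5:**
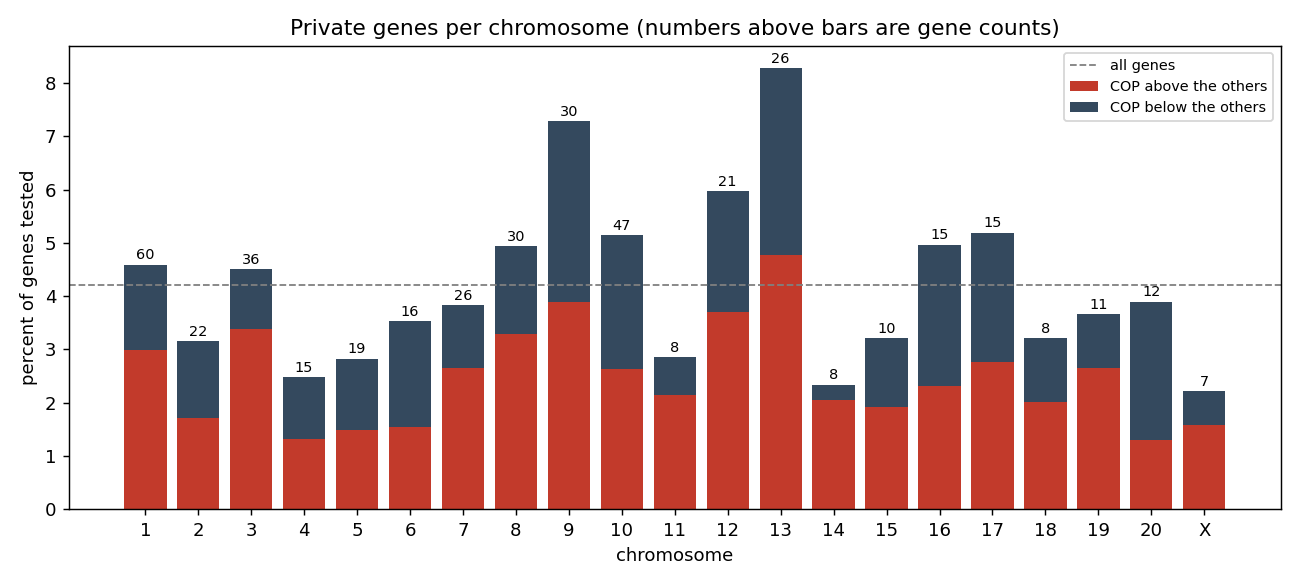
Bars give the percent of tested genes of each chromosome that were private to COP, above (red) or below (dark) the others, with gene counts over the bars and the share over all genes, 4.2%, as a dashed line; chromosome Y, with 1 tested gene, is left out. Chromosomes 13 and 9 rise above the line and chromosomes X, 14 and 4 lie under it.

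On chromosome 4, where the series sought its skeletal locus, 24 of 606 tested genes were private on any kept probe set, 17 above and 7 below. By the same count 542 of all 10548 tested genes were private. On the brightest probe set of each gene, the count on chromosome 4 was 15, as given above. The widest gap was in Cped1, the neighbour of Wnt16 at a locus linked to bone density in people, with 634, 564, 891 and 623 in COP against 213 to 388, median 265 (1.30, SE 0.14). Cyren, a regulator of DNA end joining, was 175, 193, 174 and 116 against 244 to 454, median 331 (-1.07, SE 0.15). Bcat1, which starts the breakdown of branched-chain amino acids, was 1270.2, 1169.7, 911 and 928 against 393 to 742, median 476 (1.01, SE 0.10), and its second probe set was called higher too (0.46). COP was clear of the other strains in these 3.

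Tspan33, a tetraspanin of erythroid and B cells, was 1810.4, 1987, 1998 and 2038 against 2436 to 4333, median 3019 (-0.69, SE 0.074), with F344 the farthest (3932), and both its other probe sets were called lower (-0.36 and -0.38). Bmt2, a sensor of S-adenosylmethionine in the mTOR pathway, was 1163, 1053, 1078 and 1098 against 1349.9 to 2134, median 1743 (-0.65, SE 0.10). Genes of myeloid cells followed with smaller differences, among them the lectins Clec7a (0.46) and Clec12a (0.59) and the phosphatase Ptpn6 (0.32). The chemokine Cxcl12, which holds blood stem cells in the marrow, was private on 1 probe set (0.28) and not called on its other 2 (-0.11 and -0.017), and the drug exporter Abcg2 was below (-0.41).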

How the data were processed

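Total RNA of the proximal femur was hybridised to 16 Affymetrix rat arrays, 4 per strain, grouped by the strain named in the sample titles. The authors deposited 1 linear intensity per probe set and array, and the submitters' processing notes name MAS5 as the tool; its version is not given in the sources used here. Array means trimmed by 2 percent at each end lay near 1000.3. MAS5 scales each array to 1 level, so a shift of all RNA cannot be seen.

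Of 31099 probe sets 57 controls were left out, values under 1 (255 in all) were set to 1, and log2 was taken. Probe sets with a mean under the 40th percentile were dropped. The model was fitted in R 4.3.3 with limma 3.58.1 (strain means, 12 residual degrees of freedom, intensity trend, Benjamini-Hochberg adjustment, threshold 0.05). The code was tested on simulated data with independent noise and no differences among the other strains. That test checks the code and does not measure how often calls in these data are wrong. Tables and figures were made with pandas 2.3.3, numpy 2.4.6 and matplotlib 3.10.9. In list counts, called or private, the brightest kept probe set on average stood for a gene. Symbols came from the platform annotation (20826 probe sets with 1 symbol, 436 with several, 9780 with none), of which 20758 matched RefSeq GRCr8, used for order along chromosomes and promoters.

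The naming rule took the 12 private genes with the widest gap each way, the 5 widest on chromosome 4, up to 4 called members of each list with the largest difference, all private members where a list had 4 or fewer, and 2 genes each way on either side of the edge. Further genes, such as other private list members and members not called, were named after their values were seen. The members and the 32 gene lists were chosen with earlier results of these data known. Same-numbered arrays of different strains did not deviate together (24 pairs, r between -0.17 and 0.088), so numbers were not taken to pair arrays. Alternatives changed the normalization, filter, floor, trend, moderation, array weights, grouping and arrays used.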

Additional observations from a re-analysis of the deposited data

Results flagged for a closer look

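In groups of 4 arrays, 1 array stood apart from the other 3 by a share of the group's range above Dixon's critical value for 4 values in 27 of 604 groups of named genes and in 4 of 128 groups of list means. Chance flags about 1 in 20 groups. In COP these shares were 0.871 for Fcgr2b, 0.839 for Hmox1, 0.836 for Treml1, 0.867 for Epx, 0.891 for Ccr2, 0.931 for Abca1 (a cholesterol exporter), 0.835 for Egr1 and 0.82903 for the mean of the heat shock list.

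In the other strains, against which COP is set, they were 0.852 for Rdx, 0.841 for Stat3, 0.846 for Padi4, 0.970 for Tubb1, 0.885 for Mepe, 0.903 for Adam9, 0.898 for Cox6a2, 0.925 for Inmt and 0.891 for the erythroid list mean in DA. In LEW they were 0.911 for Rnf41, 0.860 for Phf20, 0.844 for Cyren, 0.831 for Insr, 0.841 for Adam9, 0.938 for Tril and 0.843 for Eif3j. In F344 they were 0.932 for Defa7, 0.848 for Epx, 0.8293 for Usp18, 0.916 for Col6a2, 0.919 for Dgka, 0.961 for the osteocyte list mean and 0.882 for the skeletal muscle list mean.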

How the results depend on the processing

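The fit with 2 groups only called 1371 probe sets, 740 higher and 631 lower, in place of 3180, 1684 and 1496, and 46 of 151 named genes lost their call in it. Leaving out each array in turn gave 2230 to 3565 calls, 1211 to 1851 higher and 1019 to 1714 lower, and 781 to 1024 private probe sets, 469 to 615 above and 311 to 418 below, since fewer arrays make the rule easier to meet. With the replicate number as a block, 2991 probe sets were called, 1603 higher and 1388 lower, and 7 of 151 named genes lost their call; the numbers do not pair the arrays. Quantile normalization called 3227, median centring 3090, keeping dim probe sets 2881, dropping the dimmest 60 percent 2633, no intensity trend 2861, robust moderation 3162, array weights 3511 and a pseudocount of 19.3 in place of the floor 3205. Leaving out LEW replicates 1 and 4, chosen after seeing the data for their low array weights, gave 3196 calls and 926 private probe sets. Median centring turned the balance of calls round, to 1375 higher and 1715 lower. None of the 151 named genes changed sign in the alternatives run. The depth of an array is not a count, and dim probe sets are limited by their signal over background, which the deposited values do not give.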
